A study of Mus musculus with 5 samples.

Results

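The Hox genes encode homeodomain transcription factors and lie in 4 clusters on different chromosomes (Hoxa, Hoxb, Hoxc and Hoxd). Members were taken as every row of the deposited table whose gene symbol is Hox, a cluster letter and a number. This gave 32 of the 39 mouse Hox genes in RefSeq and 32 of the 17756 genes tested, with 1 row for each member. They comprised 9 of 11 Hoxa genes, 9 of 10 Hoxb genes, 7 of 9 Hoxc genes and 7 of 9 Hoxd genes. The other Hox genes were not analysed here.

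The arrays measured C57Bl/6 mouse cells from the aorta-gonad-mesonephros (AGM) region at E11.5, where blood stem cells arise from the wall of the dorsal aorta. Cells positive for both VE-cadherin, an endothelial junction protein, and CD45, a leukocyte surface protein, were sorted and cultured in serum-containing medium. The IFNa group (n = 3, replicates 1 to 3) was exposed for 4 hours to interferon-alpha (0.5 ng/ml), and the vehicle group (n = 2, replicates 2 and 3) was kept in vehicle for the same time. The labels call the replicates biological without stating whether embryos were pooled, and they name no genetic change in either group.

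Within each cluster the Hox genes are numbered by paralogue group, from 1 at the 3′ end to 13 at the 5′ end, and genes with the same number descend from a common ancestor. Low numbers are active early and anteriorly in the embryo and high numbers later and posteriorly. In blood, genes of the Hoxa and Hoxb clusters are active in stem and progenitor cells and are turned down as cells mature. Hoxa9 is known for supporting stem cell self-renewal and for driving leukemia when its expression persists, and Hoxb4 for expanding stem cells when overexpressed.

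Promoter sequences of Hoxa9, Hoxa2 and Hoxd9 are shown because the treatment is an interferon. The type I interferon response acts through a DNA element called ISRE. Other members with large differences, such as Hoxd11, are not shown. Each window is the 250 bases before the RefSeq start (GRCm38.p6), written 5′ to 3′ along the gene's strand. Hoxa9 and Hoxa2 were the members whose unadjusted p was below 0.05, and Hoxd9 had the largest difference toward lower signal. Capitals mark a HOX-PBX motif, and the windows without capitals held no match to any motif searched.

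Hoxa9, chr6:52227371-52227620, minus strand: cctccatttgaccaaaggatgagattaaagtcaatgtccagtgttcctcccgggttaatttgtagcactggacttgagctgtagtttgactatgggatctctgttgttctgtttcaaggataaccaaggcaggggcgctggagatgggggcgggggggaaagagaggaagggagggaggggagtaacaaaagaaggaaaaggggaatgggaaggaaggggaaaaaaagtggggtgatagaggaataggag

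Hoxa2, chr6:52164832-52165081, minus strand: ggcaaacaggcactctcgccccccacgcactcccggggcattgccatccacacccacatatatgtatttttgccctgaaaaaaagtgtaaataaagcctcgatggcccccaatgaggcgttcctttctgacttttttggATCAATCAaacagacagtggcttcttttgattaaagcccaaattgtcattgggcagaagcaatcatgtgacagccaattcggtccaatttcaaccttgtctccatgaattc

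Hoxd9, chr2:74697513-74697762, plus strand: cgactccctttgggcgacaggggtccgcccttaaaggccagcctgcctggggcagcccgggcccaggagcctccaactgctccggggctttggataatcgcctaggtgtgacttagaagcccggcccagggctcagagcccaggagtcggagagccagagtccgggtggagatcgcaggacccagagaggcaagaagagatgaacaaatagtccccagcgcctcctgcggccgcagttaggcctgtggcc

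Both strands were searched, and matches to different motifs could overlap. The ISRE core, GAAA repeated after a spacer of 2 bases, occurred in 0 of 24 windows of 22 Hox genes, 18 of them among the 32 members, and in 2.98% of 32851 windows of all genes. The STAT motif TTCNNNGAA (GAS) occurred in 1 Hox window, that of Hoxd4, and in 7.02% of all windows. TGATNNAT, a form bound by HOX proteins together with PBX cofactors, occurred in 4 Hox windows (16.7%), those of Hoxa2, Hoxb1, Hoxb8 and Hoxd11, and in 7.68% of all windows. The TATA box TATAAA occurred in 4 Hox windows (16.7%), those of Hoxa10, Hoxb8, Hoxd4 and Hoxd13, and in 12.4% of all windows. These matches describe letters in a short window and are not measured binding sites.

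Values are log2 probe set signals, and a difference of 1 is a 2-fold change. A probe set's brightness depends on its probes as well as on its transcript, so each member's level is given as its percentile among all genes on the same array, and no order of transcript abundance is drawn from it. No detection calls were used. As a check of the sort, Cdh5 (VE-cadherin) read 6.23 to 9.20 and Ptprc (CD45) 5.35 to 8.95 over the 5 arrays, both above the array median on all of them. The labels name the cells as hematopoietic stem cells. Of 8 stem and progenitor markers, 5 were above the array median on all 5 arrays and 3 on some. Runx1, which blood stem cell emergence requires, was so on all 5 arrays, whereas Cd34 was so on 4 and the stem cell factor receptor Kit on 2. The 9 measured macrophage markers had array medians at percentiles 97.2 to 98.7, with Csf1r at 14.3 to 14.7, the 8 stem and progenitor markers at 66.7 to 76.2 and the 4 neural markers at 32.7 to 49.1. Whether the sort holds several cell types was not tested, and in bulk samples fewer cells of a type and less RNA per cell cannot be told apart. Pearson's r across genes was 0.924 to 0.955 within groups and 0.892 to 0.933 between them.

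Most Hox probe sets were dim. The median Hox probe set lay at percentile 26.3 to 35.7 on the 5 arrays. Of the 32 members, 3 were above the array median on all 5 arrays (9.38%, against 40.0% of all genes), 11 on some arrays and 18 on none (56.2%, against 38.8%). On all 5 arrays 7 members (21.9%) were below the 20th percentile, against 12.3% of all genes. Of these 7 members 3 were in Hoxb, 3 in Hoxd, 1 in Hoxc and 0 in Hoxa, and the lowest were Hoxd1, Hoxd10 and Hoxb2 at mean percentiles of 4.38, 6.82 and 7.50.

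**Figure D1:**
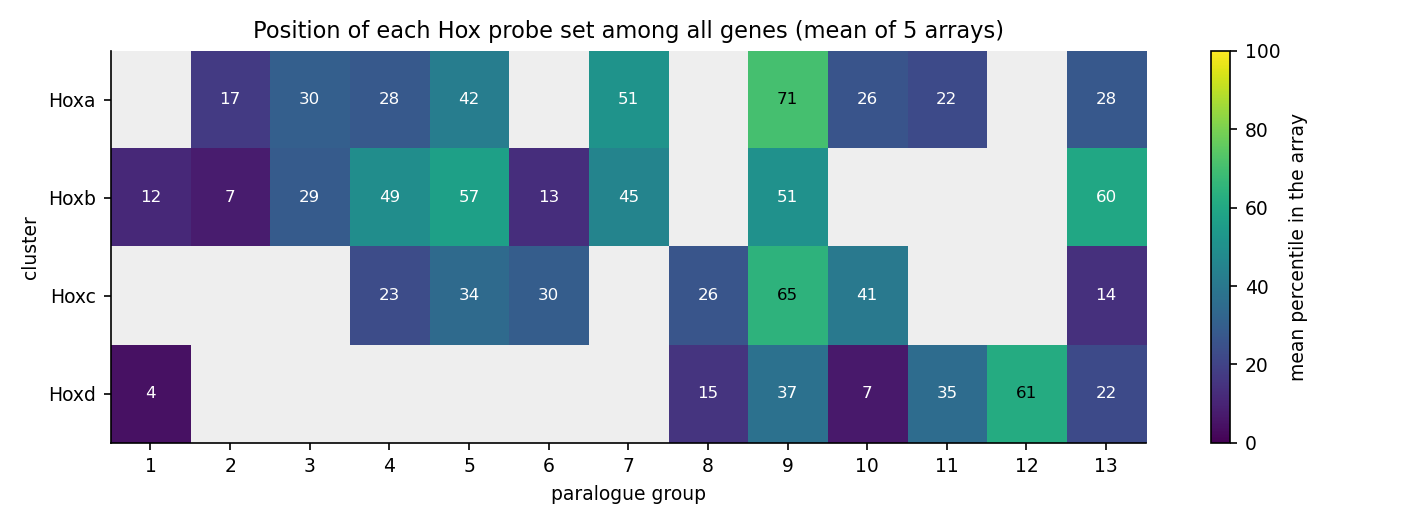
Mean percentile among all genes over the 5 arrays for each Hox probe set, by cluster (rows) and paralogue group (columns); colour and number give the percentile, and grey cells have no measured gene. Group 9 holds the highest cell, Hoxa9 at 70.7, and the lowest cell is Hoxd1 at 4.38.

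The members above the array median on every array were Hoxb13, Hoxc9 and Hoxd12, all of the posterior part of their clusters. Hoxc9, which specifies thoracic identity, read 6.51, 6.34 and 6.59 with IFNa and 6.74 and 6.34 with vehicle. Hoxd12, a limb and urogenital patterning gene, read 6.16, 6.25 and 6.28 with IFNa and 5.92 and 6.33 with vehicle. Hoxb13, a gene of the tail bud and hindgut, read 5.92, 6.24 and 6.27 with IFNa and 5.69 and 6.10 with vehicle. These probe sets were steady as well as brighter than most Hox rows. Their groups overlapped, and the differences were -0.06 ± 0.44 (SE), 0.11 ± 0.42 and 0.25 ± 0.42.

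By cluster, the array medians lay at percentiles 35.3 to 50.4 for Hoxb, 22.9 to 38.3 for Hoxa, 26.7 to 37.5 for Hoxc and 14.6 to 25.6 for Hoxd. Of the 9 Hoxb members 6 were above the array median on at least 1 array, as were 3 of 9 in Hoxa, 2 of 7 in Hoxc and 3 of 7 in Hoxd. By position, the 6 anterior members (groups 1 to 3) had array medians at percentiles 10.97 to 15.1, the 12 central members (groups 4 to 8) at 31.9 to 41.1 and the 14 posterior members (groups 9 to 13) at 29.3 to 46.1. All 4 genes of group 9 were measured, and each was above the array median on at least 1 array. All 4 genes of group 13, which pattern the genital and limb ends of the axis, were measured too. Hoxb13 was above the array median and the other 3 were below it on every array.

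**Figure D2:**
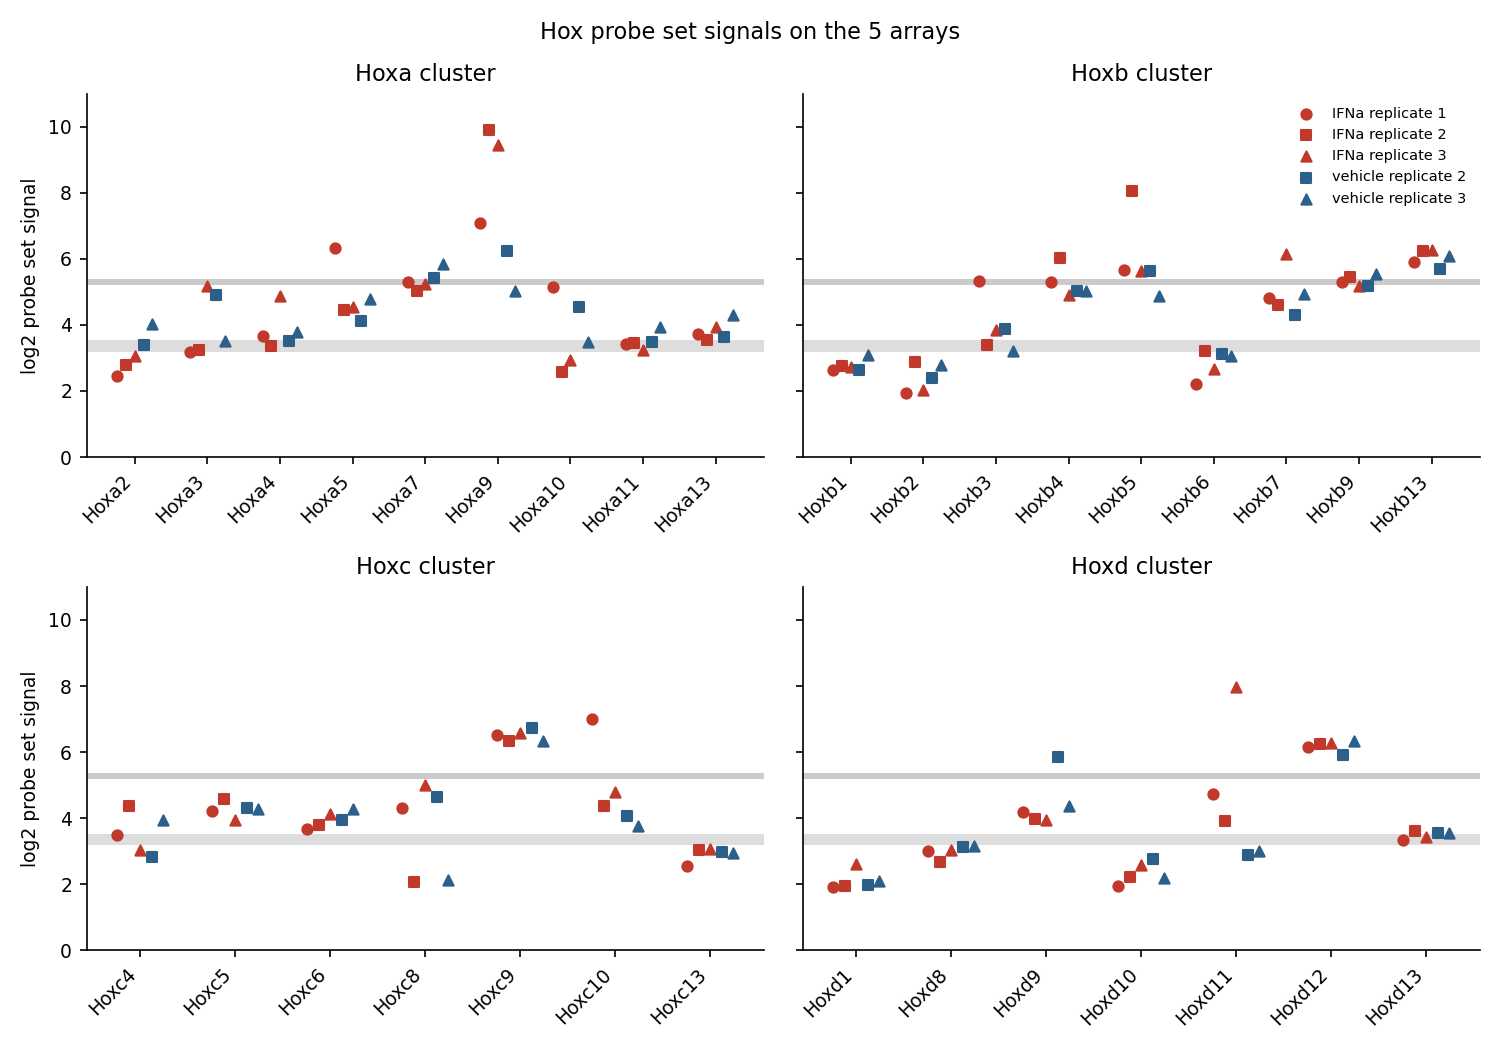
Log2 probe set signal of each Hox member on the 5 arrays, by cluster, with IFNa arrays in red and vehicle arrays in blue; the dark band spans the array medians over all genes and the light band the 20th percentiles. Most points lie below the dark band, and Hoxa9, Hoxb5 and Hoxd11 hold the points at or above 7.96.

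The comparison of IFNa with vehicle asks whether interferon-alpha alters the sorted cells. No Hox gene passed the threshold (Benjamini-Hochberg adjusted p under 0.05 over all genes, limma), against 0.135% of all genes. An unadjusted p below 0.05 was reached by 2 members, which is 6.25% against 10.0% of all genes. Hoxa9 was the 1 member on the higher side (4.52% of all genes) and Hoxa2 the 1 on the lower side (5.51% of all genes). The groups did not overlap for 9 members, which is 28.1% against 25.6% of all genes. Hoxa9, Hoxb5, Hoxc10 and Hoxd11 were above vehicle on every IFNa array, and Hoxa2, Hoxa7, Hoxa11, Hoxd8 and Hoxd9 below it. The shares are near those of all genes. Of the 32 differences 14 were above 0 and 18 below, with a median of -0.06 against -0.04 for all genes, and 23 were within 0.5 on the log2 scale. Of all 17756 genes, 8160 were above 0, 9596 below and 11112 within 0.5.

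**Figure D3:**
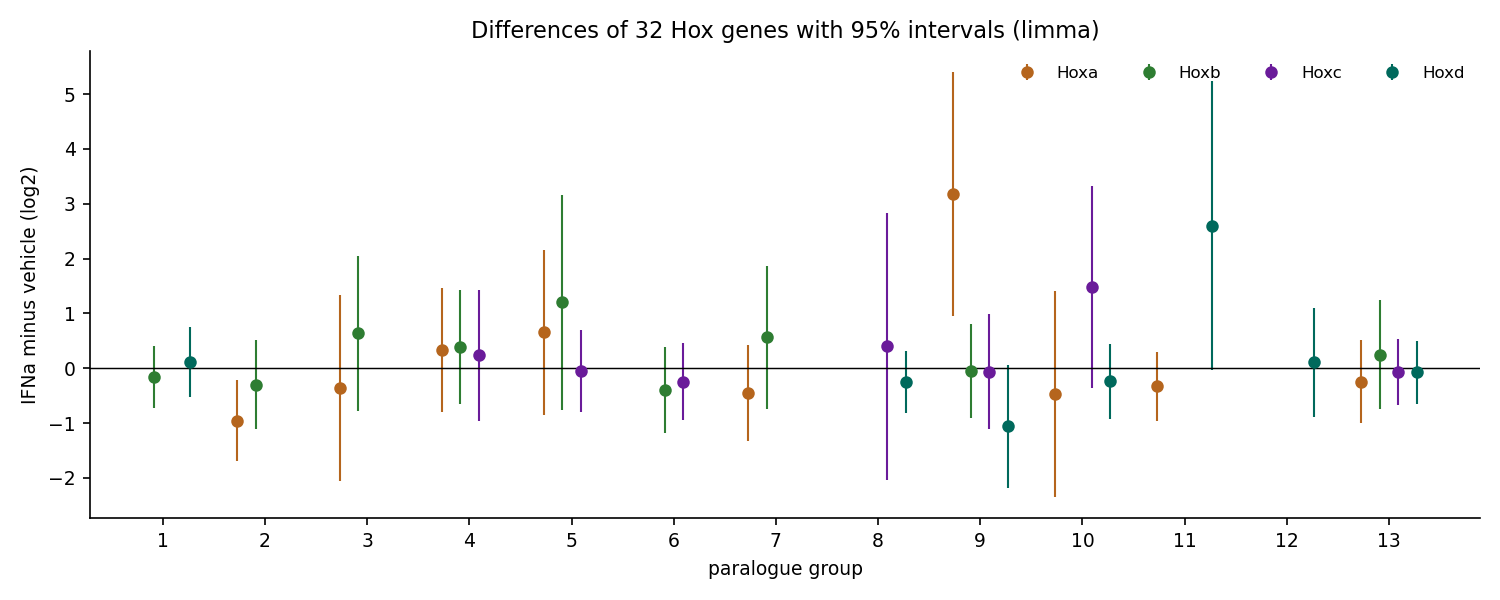
Difference between IFNa (n = 3) and vehicle (n = 2) arrays for each Hox member, on the log2 scale, by paralogue group and coloured by cluster; bars are 95% intervals from limma, not adjusted for the number of genes. The intervals of Hoxa9 and Hoxa2 exclude 0, and none of the 32 genes passed the adjusted threshold.

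Hoxa9 had the largest difference. Its probe set (1455626_at) read 7.08, 9.89 and 9.43 with IFNa and 6.23 and 5.01 with vehicle. Every IFNa array was above both vehicle arrays, with replicates 2 and 3 far above and replicate 1 closer to vehicle. The IFNa mean of 8.80 ± 1.51 (SD, n = 3) stood against a vehicle mean of 5.62 ± 0.86 (SD, n = 2), a difference of 3.18 ± 0.93 (SE) with a 95% interval of 0.96 to 5.40. The adjusted p was 0.350 (limma). Leaving out each array gave differences of 2.57 to 4.04, and over all alternatives the adjusted p ranged from 0.236 to 0.693 (limma). Hoxa9 lay at percentiles 62.0 and 44.4 on the vehicle arrays and at 90.1 and 87.9 on IFNa replicates 2 and 3.

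The genes next to Hoxa9 in the cluster did not show this pattern. Hoxa7, the neighbour on the 3′ side, read 5.28, 5.03 and 5.25 with IFNa and 5.42 and 5.85 with vehicle, a difference of -0.45 ± 0.37 (SE). Its arrays did not overlap, in the direction opposite to Hoxa9. Hoxa10, the neighbour on the 5′ side and also active in blood progenitors, read 5.16, 2.58 and 2.92 with IFNa and 4.55 and 3.47 with vehicle. Its groups overlapped, and IFNa replicates 2 and 3, the arrays with the highest Hoxa9, had the lowest Hoxa10. The difference was -0.46 ± 0.79 (SE). Whether these genes differ from Hoxa9 in their response was not tested.

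The other genes of paralogue group 9 encode proteins closely related to HOXA9. Hoxb9 read 5.17 to 5.46 with IFNa and 5.18 and 5.53 with vehicle, a difference of -0.05 ± 0.36 (SE), and Hoxc9, given above, differed by -0.06. Hoxd9 read 4.20, 3.99 and 3.95 with IFNa and 5.84 and 4.36 with vehicle. It was lower on every IFNa array, by -1.06 ± 0.47 (SE; adjusted p = 0.525, limma). Vehicle replicate 2 set most of this, and without it the difference was -0.32, while without vehicle replicate 3 it was -1.80.

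The next largest differences were in Hoxd11, Hoxc10 and Hoxb5, and the size of each leaned on a single IFNa array. Hoxd11, which patterns the forearm and the kidney, read 4.74, 3.93 and 7.96 with IFNa and 2.89 and 3.00 with vehicle. Replicate 3 stood apart, and the difference of 2.60 ± 1.10 (SE; adjusted p = 0.503, limma) was 1.39 without it. IFNa replicates 1 and 2 were also above both vehicle arrays. Both vehicle values lay below the 20th percentile of their array, and with values floored at the overall 20th percentile (3.35) the difference was 2.20. Hoxc10, a lumbar and hindlimb gene, read 7.01, 4.37 and 4.79 with IFNa and 4.05 and 3.76 with vehicle. Here replicate 1 stood apart, and the difference of 1.48 ± 0.77 (SE) was 0.67 without it.

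Hoxb5, which has been used to mark long-term blood stem cells in adult marrow, read 5.65, 8.06 and 5.64 with IFNa and 5.64 and 4.86 with vehicle. Replicate 2 was the high array, and the difference of 1.20 ± 0.82 (SE) was 0.40 without it. The lowest IFNa value and the highest vehicle value were equal to 2 decimals, so the groups barely separated. Adjusted p values of Hoxc10 and Hoxb5 were 0.608 and 0.719 (limma).

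Single high arrays were a feature of several members. The highest array exceeded all others by at least 1.5 in 4 of 32 members (12.5%, against 7.08% of all genes), Hoxa5, Hoxb5, Hoxc10 and Hoxd11. In all 4 the high array was an IFNa array, though not the same one, while just short of that gap were Hoxd9, with 1.48 on vehicle replicate 2, and Hoxb3, with 1.46 on IFNa replicate 1. Of all genes with a gap of at least 1.5, 46.9% had it on an IFNa array. This measure was chosen after the values were seen. Hoxa5, a patterning gene of the neck and lung also active in blood, read 6.33 on IFNa replicate 1 and 4.12 to 4.78 on the other 4 arrays, and its probe set is of a kind (_x_at) that can match unrelated transcripts. The spread of the family was close to that of all genes, with a median within-group SD of 0.39 against 0.42.

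**Figure D4:**
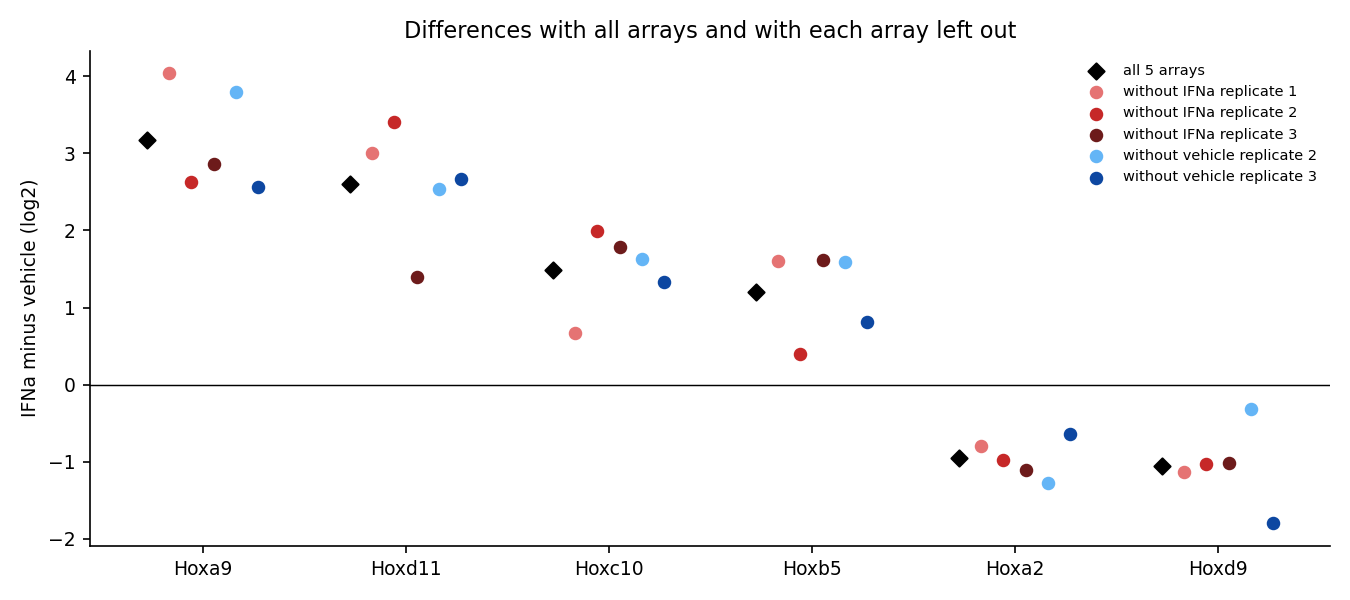
Difference between IFNa and vehicle on the log2 scale for the 6 named Hox genes with the largest differences, with all 5 arrays (black diamonds) and with each array left out (circles). Hoxa9 stays between 2.57 and 4.04, whereas Hoxb5, Hoxc10, Hoxd9 and Hoxd11 each drop toward 0 when a single array is left out.

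Among the members with lower signal, Hoxa2 had the smallest p. This gene, which patterns the hindbrain and the branchial arches, read 2.44, 2.79 and 3.05 with IFNa and 3.402 and 4.03 with vehicle. The groups did not overlap, and every IFNa value was below the 20th percentile of its array. The difference was -0.96 ± 0.31 (SE; adjusted p = 0.378, limma), or -0.36 with values floored at 3.35, so its size depends on the low end of the scale. Hoxa7, Hoxa11, Hoxd8 and Hoxd9 were also lower on every IFNa array. Hoxa11 differed by -0.33 ± 0.26 (SE), and Hoxd8, below the 20th percentile on all arrays, by -0.25 ± 0.24.

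Hoxc8 varied widely within both groups. It read 4.31, 2.07 and 5.004 with IFNa and 4.66 and 2.13 with vehicle, so each group held a low array and at least 1 higher array. The difference was 0.40 ± 1.02 (SE), which turned to -0.86 when vehicle replicate 3 was left out and reached 1.67 when vehicle replicate 2 was. Hoxb4 read 5.28, 6.02 and 4.92 with IFNa and 5.01 and 5.03 with vehicle, a difference of 0.39 ± 0.44 (SE). Its groups overlapped.

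The precision differed by member. For 17 of 32 members the 95% interval lay below a 2-fold rise, for 22 it lay above a 2-fold fall, and for 10 it lay inside both limits. Of all 17756 genes the same counts were 9928, 9326 and 4660. The widest intervals were those of Hoxd11 (-0.03 to 5.23), Hoxc8 (-2.03 to 2.84) and Hoxa9. The remaining members ranged from -0.39 (Hoxb6) to 0.64 (Hoxb3), with groups that overlapped.

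The noncoding transcripts of the clusters were covered by 3 genes. Hoxa11os, antisense to Hoxa11, read 2.08 to 2.72 over the 5 arrays and differed by -0.02. Hoxb5os, beside Hoxb5, read 2.76, 5.30 and 5.13 with IFNa and 6.51 and 3.24 with vehicle, a difference of -0.48 ± 1.12 (SE). Hoxd3os1, which had the smallest p of the 3, differed by -0.17 ± 0.36. No transcript of these was called by limma, and 0 had an unadjusted p below 0.05.

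HOX proteins bind DNA together with TALE homeodomain partners of the MEIS, PBX and PKNOX families. Limma called 0 of the 8 measured partners, with 0 at an unadjusted p below 0.05 and a median difference of -0.12. Meis1, the partner of HOXA9 in leukemia, read 3.06, 3.31 and 3.20 with IFNa and 3.98 and 2.72 with vehicle, below the array median on every array, and differed by -0.16 ± 0.39 (SE). Pbx3, another partner in leukemia, read 7.08, 5.67 and 4.92 with IFNa and 4.63 and 4.21 with vehicle. It was higher on every IFNa array, by 1.47 ± 0.65 (SE; adjusted p = 0.525, limma). Pknox1 differed by -0.07 ± 0.49.

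Upstream of the clusters, CDX factors and segment regulators activate Hox genes in the early embryo. Limma called 0 of the 5 measured genes, which had a median difference of 0.31, and 1 was at an unadjusted p below 0.05. That was Egr2 (Krox20), an activator of Hoxa2 and Hoxb2 in the hindbrain that is also induced early in activated myeloid cells. It read 11.47, 11.499 and 10.43 with IFNa and 8.87 and 9.10 with vehicle. The difference was 2.15 ± 0.47 (SE; adjusted p = 0.230, limma), with no overlap. Cdx4, which acts on Hox genes in blood formation, read 1.92 to 2.54 and differed by 0.35 ± 0.22.

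Trithorax proteins, led by the methyltransferase gene Kmt2a (MLL), keep Hox genes active. Limma called 0 of the 16 measured genes. The median difference was -0.44, with 6 genes above 0 and 10 below, and 3 genes were lower at an unadjusted p below 0.05 (18.8%, against 5.51% of all genes). Men1 (menin), which tethers MLL at Hoxa9, read 5.54, 4.76 and 5.01 with IFNa and 6.20 and 6.41 with vehicle, a difference of -1.20 ± 0.41 (SE; adjusted p = 0.407, limma). Psip1 (LEDGF), which joins menin and MLL to chromatin, differed by -1.52 ± 0.63, and Ash2l, a core subunit, by -1.46 ± 0.54. In these 3 genes every IFNa array was below both vehicle arrays. Any link between these genes and the Hoxa9 values was not tested. Kmt2b, a methyltransferase related to Kmt2a, was higher on every IFNa array, by 1.06 ± 0.53, and Rbbp5, a core subunit, differed by 1.04 ± 0.68 with overlap. Kmt2a differed by -1.14 ± 0.57 with overlap, and Dot1l, the H3K79 methyltransferase, by 0.21 ± 0.54.

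Polycomb complexes hold Hox genes silent. For the 17 measured genes there were 0 calls in limma, 0 at an unadjusted p below 0.05, and a median difference of -0.16. Their array medians lay at percentiles 70.9 to 78.2. Bmi1, a stem cell regulator, read 7.32, 4.93 and 7.34 with IFNa and 5.10 and 4.22 with vehicle, a difference of 1.87 ± 0.82 (SE; adjusted p = 0.518, limma). The methyltransferase Ezh2 differed by 0.16 ± 0.68, its partners Eed by -0.95 ± 0.52 and Suz12 by -0.54 ± 0.31, and Cbx2 by -0.16 ± 0.36.

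Retinoic acid induces anterior Hox genes through its nuclear receptors. This axis had 15 measured genes, 0 calls in limma, 1 gene in each direction at an unadjusted p below 0.05, and a median difference of -0.06. The receptor gene Rara read 6.21, 5.51 and 5.89 with IFNa and 7.44 and 8.35 with vehicle, a difference of -2.03 ± 0.52 (SE; adjusted p = 0.298, limma). Dhrs3, a retinaldehyde reductase, was higher on every IFNa array, by 1.52 ± 0.57. The synthesis enzyme Aldh1a2 differed by -0.24 ± 0.73 and the degrading enzyme Cyp26a1 by 0.63 ± 0.43.

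Genes that flank the clusters were brighter as a group than the Hox genes between them. The 24 measured flanking genes had array medians at percentiles 66.7 to 76.7, and 14 of them were above the array median on all 5 arrays, against 3 of 32 Hox genes. Limma called 0 of them, 0 were at an unadjusted p below 0.05, and their median difference was -0.05. Skap2, beside Hoxa, read 5.97 to 8.62, and Mtx2, beside Hoxd, read 7.31 to 9.82, with differences of -1.08 ± 0.75 (SE) and -1.52 ± 0.72. The homeobox gene Evx1, at the 5′ end of Hoxa, was below the array median on every array and differed by -0.15 ± 0.28. Cbx5, which had the smallest p of the flanking genes, differed by 0.74 ± 0.33. Nfe2, an erythroid and platelet factor near Hoxc, differed by -0.06 ± 0.54.

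**Figure D5:**
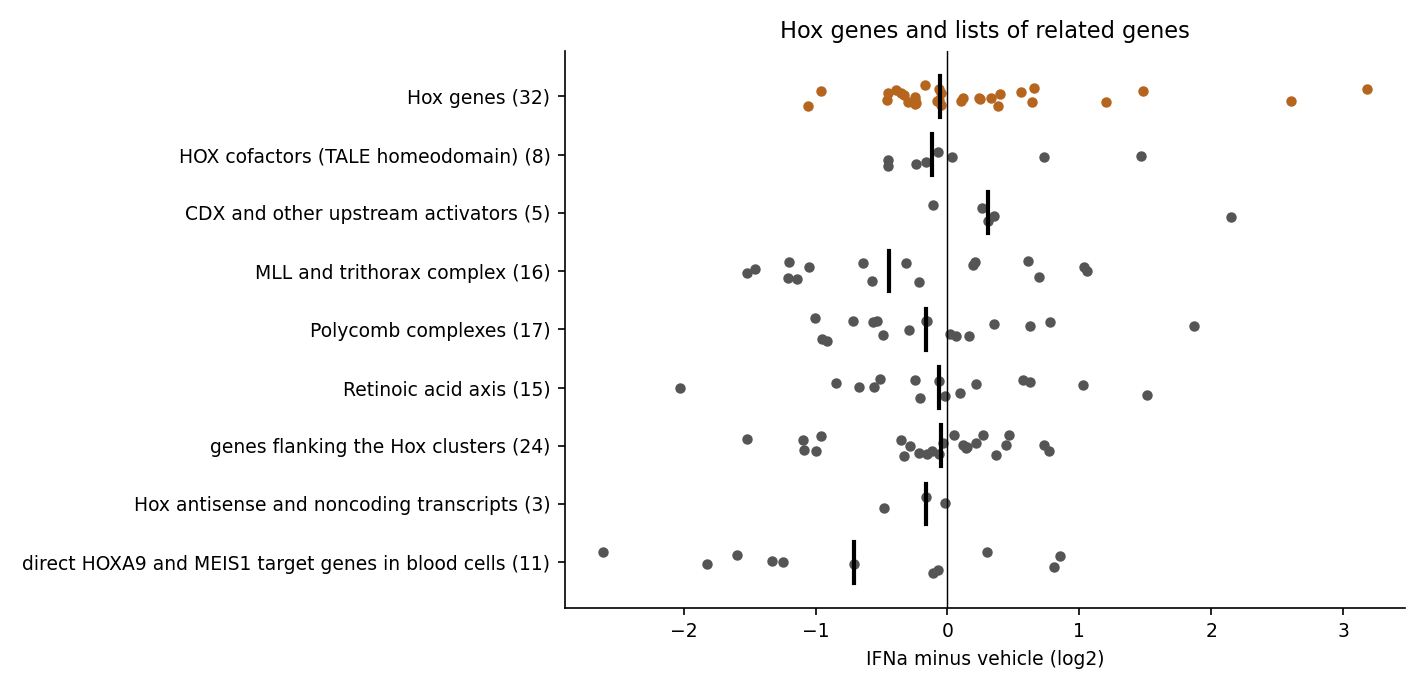
Difference between IFNa and vehicle on the log2 scale for each Hox gene (brown) and each gene of the related lists (grey), with the number of genes in parentheses; black bars are list medians and vertical scatter is for display. The medians run from -0.70 for reported targets of HOXA9 and MEIS1 to 0.31 for upstream activators, and no gene shown passed the threshold.

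Of 11 measured genes reported as targets of HOXA9 and MEIS1 in blood cells, limma called 0, and 2 were lower at an unadjusted p below 0.05 (18.2%, against 5.51% of all genes). The median difference was -0.70, with 8 of 11 below 0. Cd34, a stem and progenitor surface gene, read 5.48, 6.76 and 5.02 with IFNa and 8.53 and 8.20 with vehicle, a difference of -2.61 ± 0.63 (SE; adjusted p = 0.268, limma). Bcl2, which blocks cell death, read 1.20 to 1.89 with IFNa and 2.15 and 3.54 with vehicle, a dim row with a difference of -1.33 ± 0.43. Myb differed by -1.25 ± 1.11 and Sox4 by 0.30 ± 0.78. Ptprc also was lower on IFNa arrays, by -2.02 ± 0.75, while the mean of the 8 stem and progenitor markers was 7.23 to 7.55 with IFNa and 6.77 and 7.63 with vehicle. Those 8 include Cd34 and Myb and went both ways, with 6 differences above 0 and 2 below. The mean of 10 mesenchymal and mesonephric markers, tissues in which Hox genes are widely active, was 4.48 to 5.87 with IFNa and 4.79 and 5.34 with vehicle. The ranges of both of these means overlap between the groups. Within the mesenchymal list, however, 6 of 10 differences were above 0 and 4 below. Without overlap between the groups, 2 of its genes were higher and 2 lower, against 25.6% of all genes in either direction. The lower were Tagln and Acta2, contractile genes of smooth muscle, at -1.73 ± 0.50 and -2.04 ± 0.81 (SE). The higher were Wt1, a gene of the mesonephros and coelomic lining, at 0.98 ± 0.38, and Pdgfra at 0.88 ± 0.47. Wt1 was above the array median on 0 arrays, and its vehicle values (3.20 and 3.33) lay below the 20th percentile of their arrays. Pdgfra was above the array median only on IFNa replicate 3 (5.55). The mean of the sort markers Cdh5 and Ptprc did not overlap, at 7.20, 6.79 and 5.79 with IFNa against 8.22 and 7.94 with vehicle. Taken singly, Ptprc did not overlap between the groups, whereas Cdh5 did, with a difference of -0.95 ± 0.96 (SE). The part of these markers in the Hox results was not tested. Not selected by the naming rule were Psip1, Ash2l, Kmt2b, Rbbp5, Tagln, Acta2, Wt1, Pdgfra, Dhrs3 and Bcl2. Nor were Hoxb3, Hoxa5, Hoxa7, Hoxa10, Hoxa11, Hoxb4, Hoxb9, Hoxd8, Hoxa11os and Hoxb5os. These genes are described here because of values already seen or their place beside a named gene.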

How the data were processed

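RNA of 5 samples was amplified with a NuGen kit and hybridised to Affymetrix mouse arrays, per the labels' protocols. The deposited table gives log2 signals of 20881 probe sets. Per the submitters' processing notes they come from RMA, in a version not given in the sources used here. Values lay between -1.95 and 15.6. Negative values are unusual for RMA, which leaves sizes at the low end uncertain. The number of arrays limits the precision.

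Probe sets were named through the platform annotation. Of the 17838 rows with 1 symbol, the row with the highest mean was kept for each of 17756 genes, and 2 Hox rows carrying several symbols were left out. IFNa (n = 3) was compared with vehicle (n = 2) with limma (version 3.58.1, R 4.3.3), using lmFit and a trended eBayes step across the whole gene table, two-sided, with Benjamini-Hochberg adjustment. The fit was also run on simulated data with independent normal noise drawn from its own variance model. Those data held no array effects, so the run cannot show how the fit handles such effects here.

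The Hox members and the gene lists were chosen with earlier results of these data known. Hox genes were named if above the median on all arrays, with an unadjusted p below 0.05, without overlap at a difference of at least 1, among the 5 largest differences, or among the 3 largest within-group SDs. From each list the member with the smallest p and a set of fixed names were given. Alternatives were averaging the rows of a symbol, testing brighter genes alone, flooring values at the 20th percentile, quantile normalization, median centring, eBayes without trend, a replicate block, leaving out each array, and an adjusted p under 0.1. Replicate numbers 2 and 3 occur in both groups, but no label ties them.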

Additional observations from a re-analysis of the deposited data

How the results depend on the processing

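No Hox gene was called by limma under any setting tried, with 0 calls in each. This includes the setting with an adjusted p under 0.1 and each array left out, where a single remaining vehicle array takes its spread from the IFNa arrays. The filter on dim genes left 7 members to test and the floor left 25. With the replicate number as a fixed replicate block, which took IFNa replicate 1 out of the comparison, 0 members were called and Hoxa9 differed by 4.04. Same-numbered arrays deviated together at r = 0.0024 and 0.043. With 2 vehicle arrays the deviations of one mirror those of the other. These values therefore cannot settle whether same-numbered arrays were paired. The median Hox difference ranged from -0.12 to 0.01 with each array left out, against -0.06 with all arrays. It was 0.09 with the floor, 0.08 with quantile normalization and 0.03 with median centring, so its sign changed. Each value lay within 0.21 of -0.06. That margin is the pooled within-group SD of the arrays' median Hox signals. It is wider than the difference itself, so it cannot show a stable sign. Several alternatives could not change a direction. Averaging rows, omitting the trend and filtering dim genes left the difference of each named gene tested as it was. The replicate block gave the same differences as leaving out IFNa replicate 1. Of 115 values of the 10 named genes under alternatives, these included, 109 kept their direction and their side of the threshold. The other 6 changed sign. Hoxc9 was 0.0195 with median centring. With arrays left out in turn, Hoxc8 ranged from -0.86 to 1.67, Hoxc9 from -0.26 to 0.14 and Hoxd12 from -0.095 to 0.31. Members above a bar on all arrays numbered 17 at the 20th percentile and 0 at the 75th, against 3 at the median. The filter on dim genes was added for the named genes after seeing the data. The 99 genes of the related lists had 0 calls with each array left out. With 2 vehicle arrays, the 95% interval of 10 of 32 members lay inside a 2-fold change in both directions, against 4660 of all 17756 genes.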
